A study of Mus musculus with 12 samples.

Results

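Phase II enzymes attach a polar group to drugs, hormones, bile pigment and bile acids so that these compounds can leave the cell in bile or urine. UDP-glucuronosyltransferases (Ugt) sit in the endoplasmic reticulum and transfer glucuronic acid from UDP-glucuronate, cytosolic sulfotransferases (Sult) transfer sulfate from 3'-phosphoadenosine 5'-phosphosulfate (PAPS), and glutathione S-transferases (Gst, with the membrane-bound Mgst) couple glutathione to reactive compounds. The hepatocyte is their main site in the body. Genes were taken by symbol from the table of raw counts: numbered members of the Ugt1, Ugt2 and Ugt3 families, of Gst classes alpha, kappa, mu, omega, pi, theta and zeta, of Mgst and of Sult1 to Sult6. This gave 68 genes of the 53599 in the table, of which 21 were Ugt, 23 Gst, 3 Mgst and 21 Sult.

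RNA-seq was done on mouse cells in 4 groups of 3 libraries. HepCLiP 3D and hepCLiP 2D cells were derived from hepatocytes, and bilCLiP 3D and bilCLiP 2D cells from biliary epithelial cells. The 2D cells grew on collagen in small hepatocyte medium with 10% serum. The 3D cells aggregated for 3 days in microwells without serum and then floated for 6 to 8 days in medium with 10 ng/ml of oncostatin M, an interleukin-type cytokine. The inhibitors Y-27632, A83-01 and CHIR99021 were present in all 4 groups. Spheroid form, serum, oncostatin M and time in culture changed together between 2D and 3D and cannot be told apart. By genotype label, hepCLiP replicates 1 and 3 in both cultures were RosaConfetti, and hepCLiP replicate 2 and every bilCLiP library were RosaYFP, both of them fluorescent reporters at the Rosa26 locus.

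Sample titles set the groups. A treatment label goes against the title for hepCLiP 2D replicate 3, where it reads 3D, and for the 3 bilCLiP 3D libraries, where it reads 2D. Library totals ran from 16142365 to 21253382 counts. The summed level of 8 hepatocyte markers was 44199 to 51461 CPM (counts scaled to a common library size) in hepCLiP 3D against 119 to 1401 CPM in hepCLiP 2D, and 18376 to 45969 CPM in bilCLiP 3D against 42.5 to 743 CPM in bilCLiP 2D. Within bilCLiP 2D, replicate 1 stood apart, with 0.861 CPM of albumin (Alb) against 49.9 and 69.3 CPM in the other libraries, and it was the lowest of its group for 30 of the 44 tested genes. Replicate 1 of bilCLiP 3D, with 6026 CPM of Alb against 19965 and 22893 CPM, was lowest for 26 genes. HepCLiP 3D replicate 1 was lowest of its group for 27 genes and hepCLiP 2D replicate 2, with 19.9 CPM of Alb against 142 and 691 CPM, for 21. The summed level of 8 biliary markers was 11326 to 15693 CPM in hepCLiP 3D against 3187 to 5942 CPM in hepCLiP 2D, and 13642 to 33331 CPM in bilCLiP 3D against 5483 to 10409 CPM in bilCLiP 2D. The summed level of 8 fibroblast markers was 4.73 to 293 CPM in hepCLiP 3D against at most 6.85 CPM in hepCLiP 2D, and 10.5 to 30.2 CPM in bilCLiP 3D against 0.311 to 4.42 CPM in bilCLiP 2D. Most of the highest sum was Dcn in hepCLiP 3D replicate 1, at 282 CPM against 4.68 and 2.64 CPM in replicates 2 and 3. The sum of 6 endothelial markers was at most 3.75 CPM and that of 8 leukocyte markers at most 20.01 CPM. The 4 mesothelial markers summed to 5.57 to 25.8 CPM in hepCLiP 3D against 333 to 989 CPM in hepCLiP 2D, and to 7.97 to 27.8 CPM in bilCLiP 3D against 546 to 867 CPM in bilCLiP 2D. Nearly all of this was Msln, and Upk3b, Wt1 and Lrrn4 were at or below 0.364 CPM in every library of any group. The part of these marker differences in the results was not tested. In bulk RNA, fewer cells of a type and less RNA per cell cannot be told apart. Whether libraries of a group stem from different animals is not labelled, and the p-values speak for variation among these libraries, which may be technical.

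Many of the genes lie in clusters of neighbours, and promoters of 4 cluster members with large changes are shown because the results below return to these clusters. The sequences are the 250 bases before the RefSeq start on GRCm38.p6, on the minus strand, at chr5:87569007-87569256 for Sult1d1, chr5:87140341-87140590 for Ugt2b5, chr5:87092556-87092805 for Ugt2b36 and chr3:108017974-108018223 for Gstm1. Capitals mark matches on either strand to GTTAAT, part of the site of the HNF1 factors, to TTGCNNAA, part of the site of the C/EBP factors, and to GCGTG, the core of the site bound by the dioxin receptor, and a 24-base run that Ugt2b5 and Ugt2b36 share.
Sult1d1: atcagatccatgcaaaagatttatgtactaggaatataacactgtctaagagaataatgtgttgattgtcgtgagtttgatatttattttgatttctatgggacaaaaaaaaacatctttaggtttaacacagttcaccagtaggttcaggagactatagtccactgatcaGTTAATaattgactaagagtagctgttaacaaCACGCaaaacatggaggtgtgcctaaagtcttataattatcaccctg
Ugt2b5: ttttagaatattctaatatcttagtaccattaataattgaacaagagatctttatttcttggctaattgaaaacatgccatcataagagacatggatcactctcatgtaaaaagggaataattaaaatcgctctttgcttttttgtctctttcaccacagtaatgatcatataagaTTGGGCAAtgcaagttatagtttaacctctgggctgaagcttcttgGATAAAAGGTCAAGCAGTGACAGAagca
Ugt2b36: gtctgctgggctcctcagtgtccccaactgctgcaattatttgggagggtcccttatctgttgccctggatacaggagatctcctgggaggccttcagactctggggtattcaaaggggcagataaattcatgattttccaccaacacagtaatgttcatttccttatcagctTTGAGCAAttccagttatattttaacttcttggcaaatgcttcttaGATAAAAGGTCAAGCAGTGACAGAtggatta
Gstm1: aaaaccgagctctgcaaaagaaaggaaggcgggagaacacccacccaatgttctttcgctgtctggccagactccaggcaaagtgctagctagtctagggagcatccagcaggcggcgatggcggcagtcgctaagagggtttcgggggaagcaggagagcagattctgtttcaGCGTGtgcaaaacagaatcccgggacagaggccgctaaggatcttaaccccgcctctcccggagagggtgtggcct
The shared run, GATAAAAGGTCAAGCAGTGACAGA, began 28 bases before the start in Ugt2b5 and 31 bases before it in Ugt2b36. Among 32851 mouse promoters of this length it stood in 3, those of Ugt2b5, Ugt2b36 and Ugt2b37. Promoters were found for 59 of the 68 genes, some with more than 1 start, 71 in all. GTTAAT stood in 19.7% of these 71 and in 6.43% of all promoters, TTGCNNAA in 15.5% and 9.56%, and GCGTG in 16.9% and 28.2%. Genes with GTTAAT included Sult2a3, Sult2a4, Sult2a5, Sult2a6, Sult3a2, Ugt1a9, Ugt1a10 and Ugt3a1, whose counts were too low for the tests below. A TATAAA box stood in 19.7% of the 71 and in 12.4% of all. The antioxidant response core TGACNNNGC, bound by NRF2, stood in 5.63% and 10.2%, and CAAAGTCCA, a form of the HNF4 site, in 0% and 0.384%. Motif matches describe these windows and do not show that a factor binds there.

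A filter on low counts passed 44 of the 68 genes, namely 12 Ugt, 22 Gst, 3 Mgst and 7 Sult. The other 24 were 9 Ugt, 1 Gst (Gstt4) and 14 Sult, and none of them had more than 73 counts over all 12 libraries. No count at all was found for Sult1c1, Sult2a3, Sult2a4, Sult2a6, Sult2a7, Ugt2a1 and Ugt2a2. Of the exon bases of Ugt2a1 and Ugt2a2, 98.8% and 94.5% belong to other genes as well. Their counts depend on how shared reads were assigned, so the lack of counts does not show that they were silent. All 8 genes of the Sult2a cluster (chr7:13623967-14494230), whose products sulfate bile acids and steroids, stayed under the filter. Sult2a1 had 0, 0 and 13 counts in hepCLiP 3D, against none in hepCLiP 2D, so that a single library held them all. Where a group had no counts, the lower bounds on folds given below set it at a floor of 3 counts summed over the group, and they cover counting error only.

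**Figure D1:**
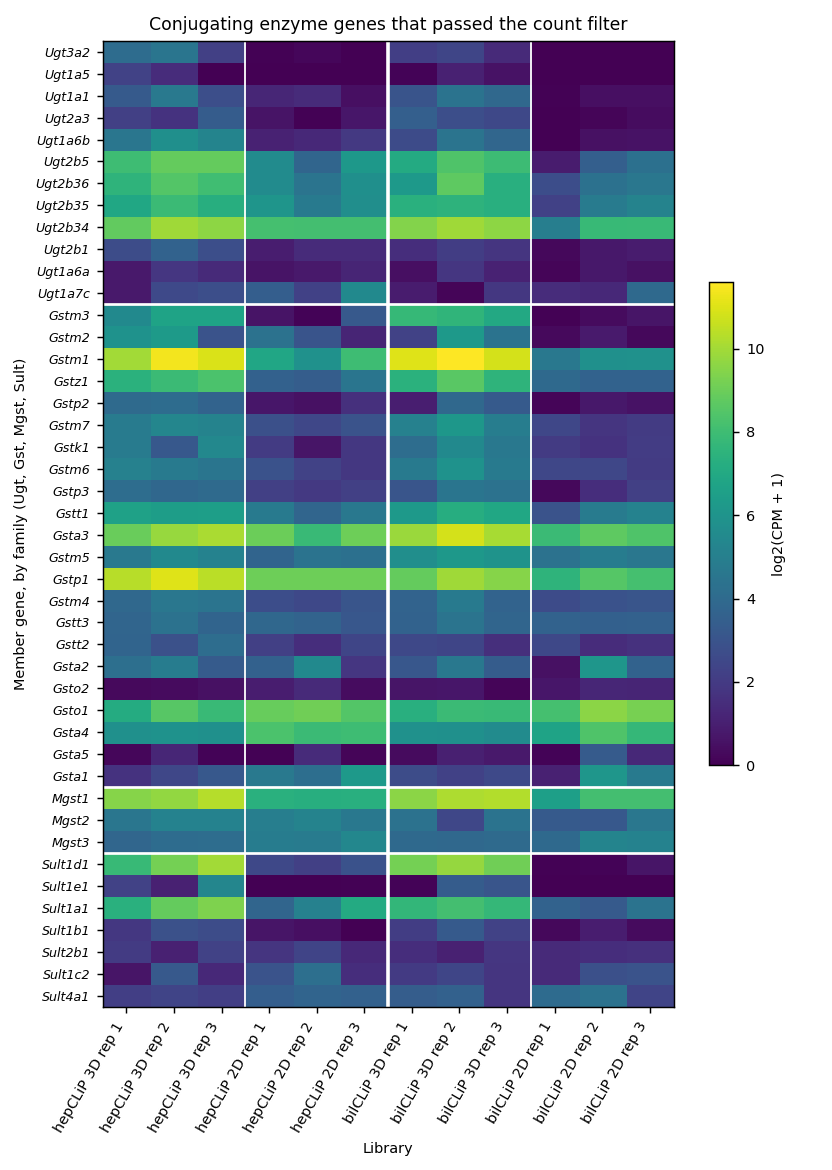
Level of each of the 44 tested genes (rows, by family) in each of the 12 libraries (columns), as log2(CPM + 1) with TMM-scaled library sizes. Most rows were brighter in the 3D libraries of both origins, Gsta4 and Gsta1 were brighter in most 2D libraries, and bilCLiP 2D replicate 1 was the darkest of its group in 30 rows.

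In both origins, 3D cells carried more conjugating enzyme RNA than 2D cells. Summed over the 68 genes it was 9011 ± 2792 CPM in hepCLiP 3D against 2724 ± 319 CPM in hepCLiP 2D (SD, n = 3 each), a ratio of 3.31. In bilCLiP 3D it was 8923 ± 2489 CPM against 2096 ± 893 CPM in bilCLiP 2D, a ratio of 4.26. As shares of all counts, the 68 genes took 0.448%, 0.838% and 0.859% in hepCLiP 3D, against 0.334%, 0.278% and 0.348% in hepCLiP 2D. BilCLiP libraries had 0.661%, 0.968% and 0.701% in 3D, against 0.140%, 0.346% and 0.277% in 2D. TMM scaling raised the 3D values relative to 2D, so all ratios of sums in this paragraph are larger than by shares. The Sult sum was 405, 1064 and 1723 CPM in hepCLiP 3D, against 37.5, 71.9 and 155 CPM in hepCLiP 2D, a ratio of 12.1. With 1 library left out this ratio ran between 8.34 (without hepCLiP 3D replicate 3) and 19.5 (without hepCLiP 2D replicate 3). In bilCLiP the Sult sum was 913 ± 228 CPM in 3D against 34.9 ± 3.26 CPM in 2D, a ratio of 26.1. The Ugt sum differed by 3.78 and 6.87 times, the Gst sum by 2.68 and 3.44 times and the Mgst sum by 4.51 and 4.12 times. The most abundant genes per kilobase of exon changed as well. In hepCLiP 3D these were Gstm1, Gstp1 and Mgst1, at 1273, 1022 and 471 CPM per kilobase, and in hepCLiP 2D they were Gstp1, Gsto1 and Gsta4, at 338, 226 and 214. In bilCLiP 3D they were Gstm1, Mgst1 and Gstp1, at 1580, 516 and 470 CPM per kilobase, and in bilCLiP 2D Gsto1, Gstp1 and Gsta4, at 273, 182 and 171. By CPM alone Gsta3 was among the top 3 in hepCLiP 2D, bilCLiP 3D and bilCLiP 2D. All its annotated exons cover 4344 bases and its longest protein-coding transcript 1457, so its rank depends on the length used.

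With edgeR's quasi-likelihood test and Benjamini-Hochberg adjustment over all 14798 tested genes, 27 of the 44 genes were higher and 2 were lower in hepCLiP 3D than in hepCLiP 2D. These 29 are 65.9% of the 44, while 34.7% of all tested genes were called, 16.9% as higher and 17.9% as lower. The median log2 fold change of the 44 was 2.15, against -0.06 over all genes. In bilCLiP 28 were higher and 3 lower in 3D, 70.5% of the 44, beside 30.3% of all genes, 15.8% as higher and 14.5% as lower. The median of the 44 was 2.35, against 0.00 over all genes. A gene that passed the filter only through its 3D libraries had to differ, so these counts describe the tested genes and are no test of the families. Genes called higher in both origins numbered 25, which is 92.6% of those in hepCLiP and 89.3% of those in bilCLiP. Gsta4 and Mgst3 were called lower in both. The same shares over all genes were not counted, so these do not set the 44 genes apart. The remaining 11 genes that no culture comparison called were Ugt1a6a, Ugt1a7c, Gsta1, Gsta2, Gsta5, Gsto2, Gstt3, Mgst2, Sult1c2, Sult2b1 and Sult4a1. The 3 libraries of 3D and of 2D did not overlap for 27 higher and 4 lower genes in hepCLiP, 70.5% of the 44, while this held for 46.9% of all genes. The share in bilCLiP was 72.7%, beside 49.1%.

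These counts moved when hepCLiP was reduced to the libraries of 1 genotype and when the scaling was changed. Reduction to 1 genotype also left fewer hepCLiP libraries, so genotype and library number cannot be told apart. With hepCLiP reduced to the RosaConfetti libraries (replicates 1 and 3, chosen after seeing the data), 18 genes were higher and 1 was lower in 3D. With the RosaYFP libraries alone, 1 hepCLiP library per culture assumed to vary like the bilCLiP ones, 7 were higher and 0 lower. Scaling by library totals alone lowered the median of all genes by 0.57 (log2) in hepCLiP and 0.47 in bilCLiP, and then 23 genes were higher and 6 lower in hepCLiP 3D.

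**Figure D2:**
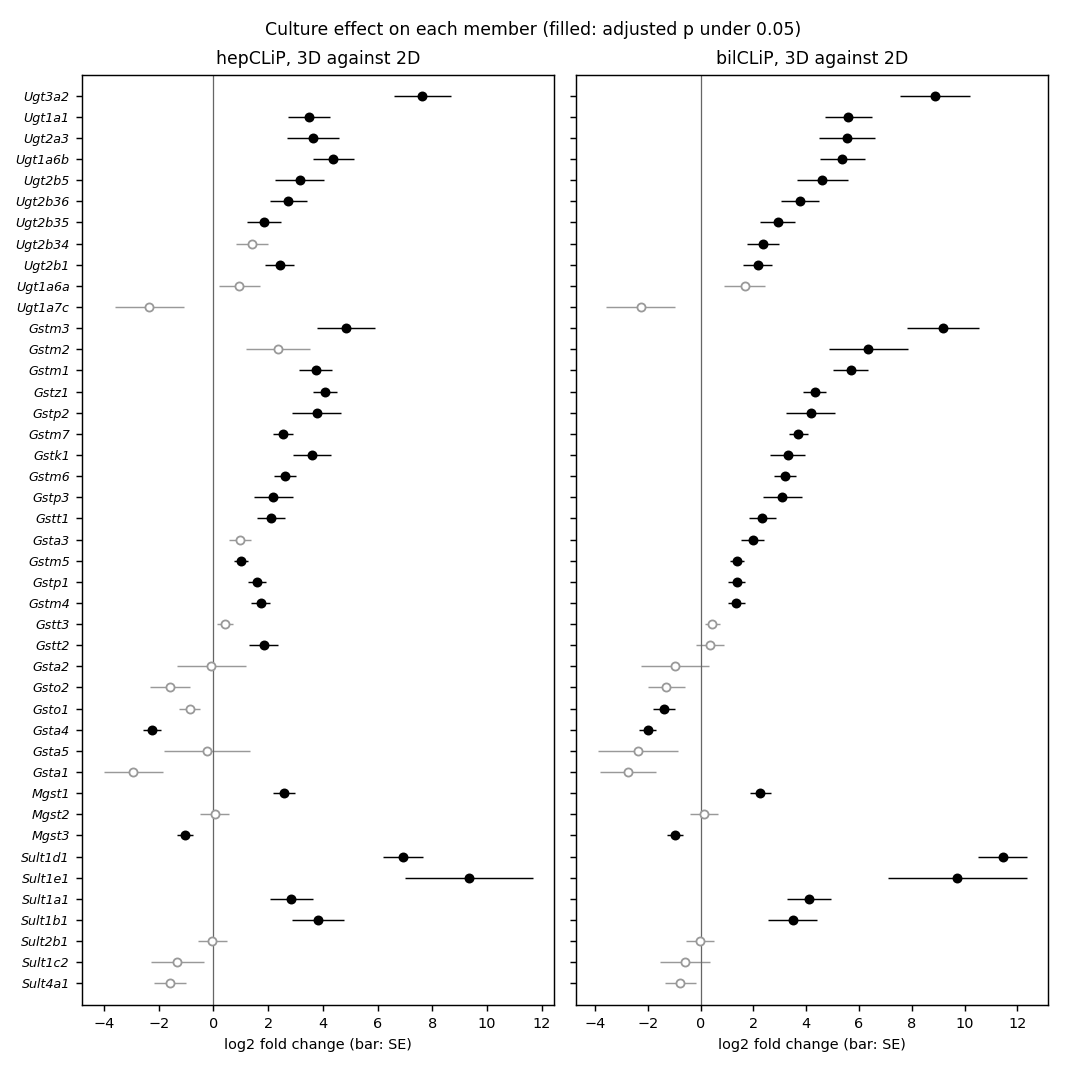
Fitted log2 fold change of 3D over 2D (horizontal axis, bars SE) for 43 of the 44 tested genes in hepCLiP (left) and bilCLiP (right), filled where the adjusted p was under 0.05. Ugt1a5, with no counts in 2D, is left out, and the points of Sult1e1 and Ugt3a2 rest on 2D groups with few or no counts, so their position is not a measured size. Of the genes shown, 26 were called higher and 2 lower in hepCLiP, and 28 higher and 3 lower in bilCLiP.

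Of the 5 tested Sult1 sulfotransferases, 4 were called higher in 3D in both origins. Sult1d1, which sulfates dopamine and other catecholamines in the mouse, had 226, 576 and 1006 CPM in hepCLiP 3D, against 4.67, 3.55 and 6.69 CPM in hepCLiP 2D (replicates 1 to 3, as in all lists of 3 values). BilCLiP 3D had 573, 858 and 534 CPM, against 0.0431, 0.0777 and 0.592 CPM in bilCLiP 2D. Every 3D library was far above every 2D library, and bilCLiP 2D was near the detection limit. The log2 fold change was 6.92 ± 0.73 (SE, adjusted p = 0.000132) in hepCLiP and 11.44 ± 0.91 (adjusted p = 3.16e-05) in bilCLiP.

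Sult1e1, the oestrogen sulfotransferase, had 52, 15 and 563 counts in hepCLiP 3D, against 0, 0 and 1 count in hepCLiP 2D, and 1, 162 and 128 counts in bilCLiP 3D, against none in bilCLiP 2D. In hepCLiP all 3D libraries lay above 2D, but by very different amounts, with a single library holding most of the counts. In bilCLiP 3D, replicate 1 had only 1 count, so the separation there rests on replicates 2 and 3. The ratio of 3D to 2D in hepCLiP was 951 with an exact 95% interval of 170 to 37637, and in bilCLiP 3D was at least 138-fold higher. Its calls (adjusted p = 0.0142 in hepCLiP and 0.0232 in bilCLiP) were lost without any 1 of the 3 hepCLiP 2D libraries (0.0511 to 0.0625), and in bilCLiP without 3D replicate 2 (0.0566) or any 2D library (0.0542 to 0.0585).

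Sult1a1, the main phenol sulfotransferase of liver, had 165, 466 and 663 CPM in hepCLiP 3D, against 12.6, 33.5 and 133 CPM in hepCLiP 2D. BilCLiP 3D had 206, 282 and 212 CPM, against 11.6, 8.86 and 20.5 CPM in bilCLiP 2D. The groups did not overlap in either origin, although hepCLiP 2D replicate 3 came close to the lowest 3D library. Its log2 fold change was 2.85 ± 0.78 (adjusted p = 0.0159) in hepCLiP, lost without hepCLiP 2D replicate 2 (0.0573), and 4.10 ± 0.82 (0.00415) in bilCLiP. Sult1b1, active on small phenols and thyroid hormone, averaged 4.86 ± 1.93 CPM in hepCLiP 3D against 0.337 ± 0.307 CPM in hepCLiP 2D, and 5.26 ± 2.96 CPM in bilCLiP 3D against 0.459 ± 0.413 CPM in bilCLiP 2D (SD, n = 3 each). Both differences were called (adjusted p = 0.0104 and 0.0161), the second one not without bilCLiP 3D replicate 2 (0.0599), bilCLiP 2D replicate 1 (0.0530) or bilCLiP 2D replicate 3 (0.0590).

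The other tested sulfotransferases were not called higher in 3D. Sult4a1, a brain form without a known substrate, had 3.44, 4.19 and 3.47 CPM in hepCLiP 3D, against 10.1, 12.5 and 11.3 CPM in hepCLiP 2D. These groups did not overlap, and the log2 fold change of -1.61 ± 0.59 missed the threshold (adjusted p = 0.0556) but passed with replicates as a block (0.000335) or without bilCLiP 3D replicate 3 (0.0253) or bilCLiP 2D replicate 3 (0.0226). In bilCLiP 3D it had 9.55, 11.2 and 2.44 CPM, against 15.5, 19.6 and 4.15 CPM in bilCLiP 2D, lower within each replicate number although the groups overlapped. The log2 fold change there was -0.76 ± 0.57 (adjusted p = 0.344, with the block 0.00691). Sult1c2 had 0.586, 8.37 and 1.53 CPM in hepCLiP 3D, against 6.75, 17.5 and 1.90 CPM in hepCLiP 2D, with an overlap and a log2 fold change of -1.32 (adjusted p = 0.314, or -3.04 and 0.0465 without hepCLiP 3D replicate 2). In bilCLiP its log2 fold change was -0.58 (0.689). Sult2b1, which sulfates cholesterol and pregnenolone, differed by -0.04 ± 0.52 in hepCLiP and -0.01 ± 0.52 in bilCLiP on the log2 scale.

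**Figure D3:**
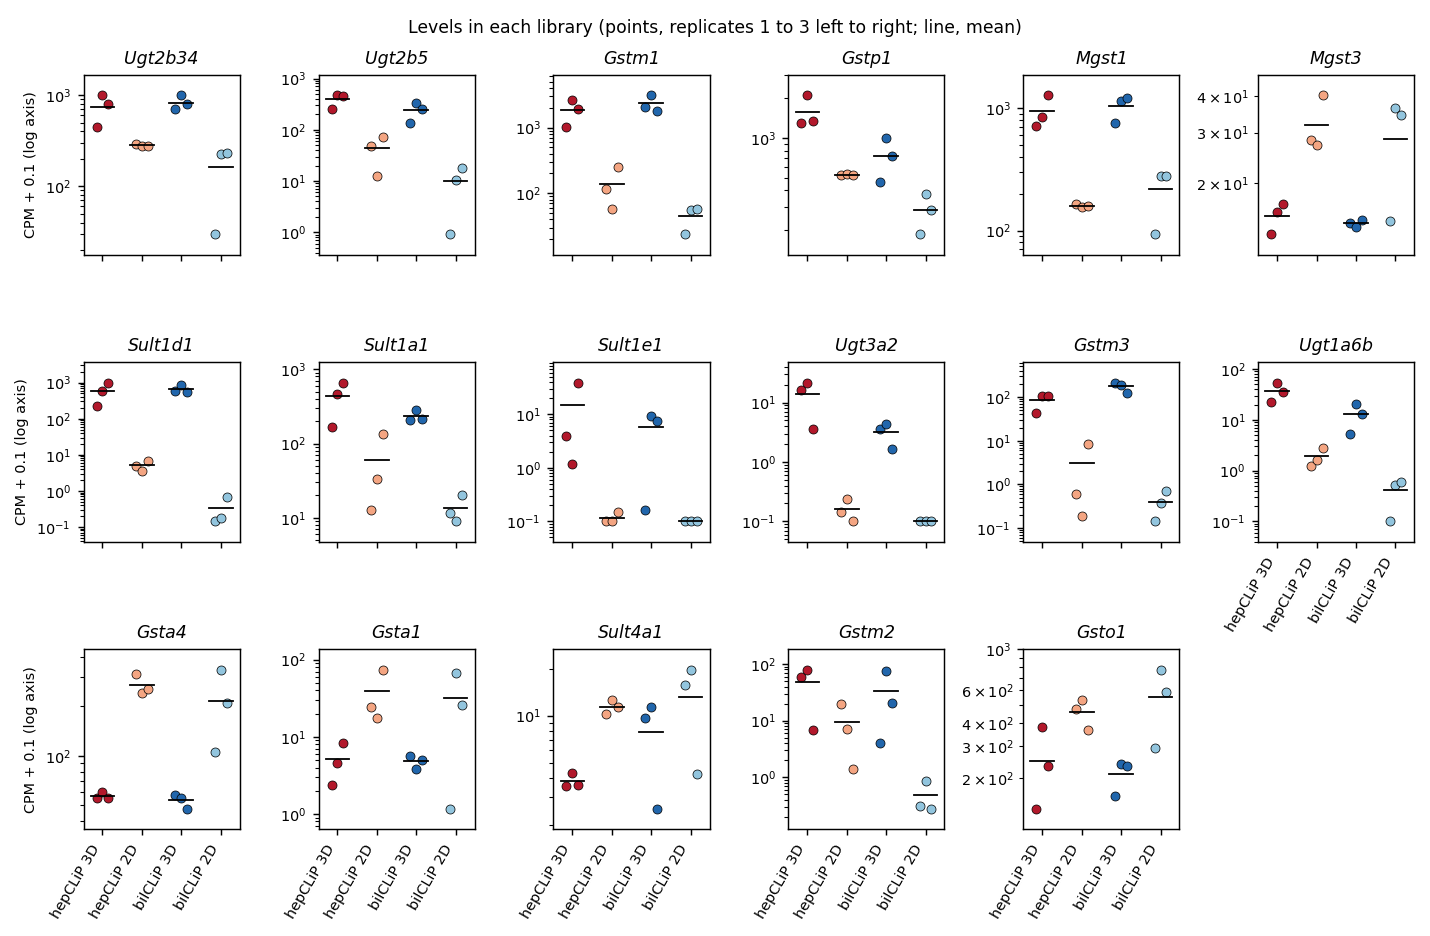
CPM + 0.1 on log axes for 17 genes, 1 panel each, with the 3 libraries of each group as points from replicate 1 to 3 and the group mean as a line. Sult1d1 in 3D lay at 226 to 1006 CPM, above every 2D library, while Gsta4 in 3D lay at 47.8 to 59.9 CPM, below every 2D library.

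Glucuronosyltransferases were higher in 3D for 9 of the 12 tested in each origin, and none was lower. Their median log2 fold change was 2.94 in hepCLiP and 4.19 in bilCLiP, or 3.75 with Ugt1a5 and Ugt3a2, which had no counts in bilCLiP 2D, set at their lower bounds. Ugt2b5, one of the steroid and drug glucuronidating Ugt2b forms, had 254, 469 and 465 CPM in hepCLiP 3D, against 47.9, 12.6 and 72.8 CPM in hepCLiP 2D. BilCLiP 3D had 135, 336 and 250 CPM, against 0.818, 10.5 and 18.2 CPM in bilCLiP 2D. Neither origin showed an overlap between cultures. The log2 fold change was 3.16 ± 0.89 (adjusted p = 0.0186) in hepCLiP and 4.61 ± 0.95 (0.00478) in bilCLiP. The hepCLiP call was lost without hepCLiP 2D replicate 1 (0.0530) or replicate 2 (0.0531). A share of 24.7% of the 100-base stretches of the Ugt2b5 transcript also occurs in Ugt2b38, so reads may be split between the pair.

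Ugt2b34, a further Ugt2b form, had 451, 994 and 797 CPM in hepCLiP 3D, against 292, 279 and 278 CPM in hepCLiP 2D, and 701, 997 and 794 CPM in bilCLiP 3D, against 29.7, 225 and 233 CPM in bilCLiP 2D. The groups were separate in both origins, with bilCLiP 2D replicate 1 far below the rest. The bilCLiP difference was called (log2 fold change 2.36 ± 0.60, adjusted p = 0.0132), though not without the low-count filter or with only the 2 bilCLiP groups fitted. The hepCLiP one was not (1.40 ± 0.58, 0.0843), but it was without bilCLiP 2D replicate 1 (0.00300), which enters only the shared estimate of the spread.

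Bilirubin is glucuronidated by Ugt1a1, which averaged 13.2 ± 10.3 CPM in hepCLiP 3D against 1.17 ± 0.690 CPM in hepCLiP 2D, and 13.9 ± 6.61 CPM in bilCLiP 3D against 0.281 ± 0.206 CPM in bilCLiP 2D (SD, n = 3 each). It was called higher in both (adjusted p = 0.00586 and 0.00113). Ugt1a6b, a phenol glucuronidating form, had 22.3, 54.4 and 36.1 CPM in hepCLiP 3D, against 1.16, 1.5003 and 2.75 CPM in hepCLiP 2D. BilCLiP 3D had 5.27, 20.8 and 13.2 CPM, against 0, 0.428 and 0.501 CPM in bilCLiP 2D. The cultures were clearly separated, by 4.38 ± 0.75 on the log2 scale in hepCLiP (adjusted p = 0.00152) and 5.37 ± 0.84 in bilCLiP (0.00108). The 9 Ugt1a genes (chr1:88055388-88220002) each have their own first exon and share the rest, and 50.3% to 82.7% of the exon bases of each belong to other genes as well. Their counts depend on how shared reads were assigned, and their values are uncertain. Ugt1a5 had 54, 25 and 0 counts in hepCLiP 3D, against none in hepCLiP 2D, at least 39.8-fold higher. In bilCLiP 3D it had 1, 19 and 8 counts, against none in bilCLiP 2D, at least 13.3-fold higher. It was called in hepCLiP (adjusted p = 0.0366), but not when any 1 of hepCLiP 3D replicates 1 and 2, the hepCLiP 2D libraries or bilCLiP 3D replicate 3 was left out (0.0612 to 0.0882), and in bilCLiP it was called with replicates as a block (0.0217, otherwise 0.0926), by DESeq2 (0.0153) and without hepCLiP 3D replicate 3 (0.0308). With the block Ugt1a6a was also called higher in bilCLiP (log2 fold change 1.62, adjusted p = 0.0216).

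Ugt3a2, whose human counterpart uses UDP-glucose and UDP-xylose, had 221, 305 and 51 counts in hepCLiP 3D, against 1, 3 and 0 in hepCLiP 2D. BilCLiP 3D had 53, 75 and 27 counts, against none in bilCLiP 2D. It was practically limited to 3D, at 13.8 ± 9.28 CPM in hepCLiP 3D against 0.0609 ± 0.0694 CPM in hepCLiP 2D (SD, n = 3 each, adjusted p = 0.000803), and at least 73.5-fold higher in bilCLiP 3D (0.00156). The remaining called Ugt genes were Ugt2a3, Ugt2b1, Ugt2b35 and Ugt2b36. Their log2 fold changes ran between 1.86 for Ugt2b35 and 3.62 for Ugt2a3 in hepCLiP, and between 2.16 for Ugt2b1 and 5.54 for Ugt2a3 in bilCLiP. The hepCLiP call of Ugt2b35 (adjusted p = 0.0396) did not stand with replicates as a block (0.0640) or when any 1 of 8 libraries was left out (0.0505 to 0.120).

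Glutathione S-transferases split by class. In hepCLiP 13 of 22 were higher in 3D and 1 was lower, and in bilCLiP 14 were higher and 2 lower. The higher ones in hepCLiP were of the mu, pi, theta, kappa and zeta classes, joined by the alpha form Gsta3 in bilCLiP, and the lower ones were Gsta4 in both and Gsto1 in bilCLiP. Gstm1, the leading mu class enzyme of mouse liver, had 1024, 2659 and 1941 CPM in hepCLiP 3D, against 114, 56.7 and 250 CPM in hepCLiP 2D. BilCLiP 3D had 2071, 3093 and 1817 CPM, against 23.6, 56.0 and 56.6 CPM in bilCLiP 2D. Every 3D library exceeded every 2D one several times over, with log2 fold changes of 3.74 ± 0.60 (adjusted p = 0.00108) in hepCLiP and 5.68 ± 0.66 (0.000213) in bilCLiP.

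Gstm3, another mu form, had 44.0, 105 and 104 CPM in hepCLiP 3D, against 0.509, 0.0909 and 8.29 CPM in hepCLiP 2D. BilCLiP 3D had 215, 192 and 126 CPM, against 0.0431, 0.272 and 0.592 CPM in bilCLiP 2D. No 2D library approached the 3D level, and hepCLiP 2D replicate 3 stood above the other 2D ones. The log2 fold change was 4.85 ± 1.08 (adjusted p = 0.00587) in hepCLiP, or 8.11 (0.000401) without that library, and 9.19 ± 1.37 (0.000876) in bilCLiP. Gstm2 had 59.3, 79.2 and 6.74 CPM in hepCLiP 3D, against 19.98, 7.09 and 1.30 CPM in hepCLiP 2D, groups that overlapped. In bilCLiP 3D it had 3.89, 75.4 and 20.2 CPM, against 0.215, 0.777 and 0.182 CPM in bilCLiP 2D, groups that did not. It was called in bilCLiP (6.35 ± 1.49, adjusted p = 0.00922) and in hepCLiP only with replicates as a block (2.47, 0.00431, otherwise 0.145).

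Gstp1, the pi class enzyme that is also found in bile ducts, had 1298, 2102 and 1346 CPM in hepCLiP 3D, against 522, 528 and 519 CPM in hepCLiP 2D. BilCLiP 3D had 463, 997 and 723 CPM, against 186, 375 and 284 CPM in bilCLiP 2D. The cultures did not overlap, with log2 fold changes of 1.60 ± 0.33 (adjusted p = 0.00376) and 1.37 ± 0.32 (0.00934). Both were small beside those of Gstm1 and Gstm3. The mu forms Gstm4 (1.73 and 1.35) and Gstm5 (1.02 and 1.38) had changes of similar or smaller size. Of the 100-base stretches of the Gstp1 transcript, 52.8% also occur in other genes, most often Gstp2, so the split between them is uncertain. Gstz1, the maleylacetoacetate isomerase of tyrosine breakdown, averaged 242 ± 74.9 CPM in hepCLiP 3D against 14.2 ± 6.49 CPM in hepCLiP 2D, and 253 ± 128 CPM in bilCLiP 3D against 12.6 ± 1.63 CPM in bilCLiP 2D (SD, n = 3 each). Its log2 fold changes of 4.09 ± 0.43 and 4.33 ± 0.44 had adjusted p of 0.000139 and 0.000119.

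Gsta4, which conjugates the lipid peroxidation product 4-hydroxynonenal, was lower in 3D. It had 55.6, 59.9 and 55.5 CPM in hepCLiP 3D, against 313, 241 and 257 CPM in hepCLiP 2D, and 58.2, 55.3 and 47.8 CPM in bilCLiP 3D, against 106, 335 and 209 CPM in bilCLiP 2D. The 3D libraries of both origins lay in a narrow band below all 2D libraries, with log2 fold changes of -2.25 ± 0.33 (adjusted p = 0.000644) in hepCLiP and -2.01 ± 0.32 (0.00129) in bilCLiP. Gsto1, the omega form that reduces dehydroascorbate, had 137, 378 and 234 CPM in hepCLiP 3D, against 475, 534 and 364 CPM in hepCLiP 2D, with an overlap. In bilCLiP 3D it had 160, 239 and 234 CPM, against 293, 775 and 590 CPM in bilCLiP 2D, without one. It was called lower in bilCLiP (-1.39 ± 0.40, adjusted p = 0.0246), though not when any 1 of the 3 bilCLiP 3D libraries or bilCLiP 2D replicate 2 or 3 was left out (0.0574 to 0.0940), and in hepCLiP with replicates as a block (-0.97, 0.0234, otherwise 0.113) or without hepCLiP 3D replicate 2 (0.0403).

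Gsta1 had 2.27, 4.54 and 8.27 CPM in hepCLiP 3D, against 24.5, 17.5 and 73.9 CPM in hepCLiP 2D, and 5.47, 3.73 and 4.93 CPM in bilCLiP 3D, against 1.08, 67.8 and 25.8 CPM in bilCLiP 2D. Only bilCLiP 2D replicate 1 kept the bilCLiP groups from separating. The log2 fold changes of -2.94 ± 1.07 and -2.75 ± 1.06 missed the threshold (adjusted p = 0.0554 and 0.0749), and both passed it without bilCLiP 2D replicate 1 (0.00687 and 0.00783), the first one also without bilCLiP 2D replicate 2 (0.0430). Gsta1 shares 81.8% of its 100-base stretches with other genes, mostly the gene model Gm3776, so its value is uncertain. Gsta3, the form that detoxifies aflatoxin epoxide in the mouse, averaged 833 ± 311 CPM in hepCLiP 3D against 422 ± 167 CPM in hepCLiP 2D, and 1296 ± 496 CPM in bilCLiP 3D against 331 ± 92.6 CPM in bilCLiP 2D (SD, n = 3 each). It was called higher in bilCLiP (1.97 ± 0.42, adjusted p = 0.00545) and in hepCLiP with replicates as a block (1.00, 0.0478, otherwise 0.0855) or without hepCLiP 3D replicate 1 (0.0366).

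The other called Gst genes were Gstk1, Gstm4 to Gstm7, Gstp2, Gstp3 and Gstt1, higher in both origins, and Gstt2, called only in hepCLiP. Their log2 fold changes in hepCLiP ran between 1.02 for Gstm5 and 3.78 for Gstp2. The hepCLiP calls of Gstp3 (adjusted p = 0.0350) and Gstt2 (0.0194) were weak. That of Gstp3 was lost when any hepCLiP library or bilCLiP 3D replicate 3 was left out (0.0504 to 0.0964), and that of Gstt2 without hepCLiP 3D replicate 3 (0.0686) or hepCLiP 2D replicate 2 (0.0667).

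Membrane-bound forms went separate ways. Mgst1, the detoxifying form of liver endoplasmic reticulum and mitochondria, had 717, 848 and 1276 CPM in hepCLiP 3D, against 163, 155 and 159 CPM in hepCLiP 2D, and 758, 1137 and 1220 CPM in bilCLiP 3D, against 93.2, 280 and 279 CPM in bilCLiP 2D. The cultures were separate in both origins (log2 fold change 2.58 ± 0.40, adjusted p = 0.000855, and 2.26 ± 0.39, 0.00192). Mgst3 had 13.3, 15.9 and 16.9 CPM in hepCLiP 3D, against 28.1, 27.1 and 40.2 CPM in hepCLiP 2D, and 14.5, 14.0 and 14.9 CPM in bilCLiP 3D, against 14.7, 36.5 and 34.3 CPM in bilCLiP 2D. It was lower in both, by -1.05 ± 0.30 (adjusted p = 0.0192) and -0.98 ± 0.30 (0.0296), with bilCLiP 2D replicate 1 level with the 3D libraries. The hepCLiP call was lost without hepCLiP 3D replicate 1 (0.0826) or hepCLiP 2D replicate 3 (0.0741), and the bilCLiP call without any bilCLiP 3D library or bilCLiP 2D replicate 2 or 3 (0.0727 to 0.108). Mgst2, which can make leukotriene C4, differed by 0.04 ± 0.52 and 0.14 ± 0.53.

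With replicates as a block the number of genes lower in hepCLiP 3D was 4, against 2 without it. Without hepCLiP 3D replicate 1 or hepCLiP 2D replicate 3 it was 1, and without hepCLiP 3D replicate 2 it was 4. Of the 44, the number lower in bilCLiP 3D was 1 without any 1 of the bilCLiP 3D libraries or bilCLiP 2D replicate 2 or 3, against 3 with all libraries.

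Neighbouring genes were counted by cluster, and no test of clustering was run. On chromosome 5 (chr5:86889767-87591594, GRCm38 as in the reference used here, while the counts were made on GRCm39) 10 Ugt2 genes are followed by Sult1b1, Sult1d1 and Sult1e1. Of these 13, 9 were tested, and 8 were called higher in hepCLiP and all 9 in bilCLiP. Ugt2a1 and Ugt2a2, which act in the olfactory lining, lie in its midst and had no count, a value made uncertain by their shared exons. Ugt2b37, whose promoter also holds the 24-base run, had 0, 1 and 9 counts in hepCLiP 3D, against none in hepCLiP 2D, too few to test, unlike Ugt2b5 and Ugt2b36. The 7 Gstm genes on chromosome 3 (chr3:107895821-108044894) were all tested, with 6 higher in hepCLiP and 7 in bilCLiP, and the 3 Gstp genes on chromosome 19 (chr19:4035407-4059569) were called higher in both. Of the 5 tested Ugt1a genes, 3 were higher in hepCLiP and 2 in bilCLiP, while Ugt1a7c had log2 fold changes of -2.34 (adjusted p = 0.171) and -2.28 (0.210). Of the 3 tested Gstt genes on chromosome 10, 2 were higher in hepCLiP and 1 in bilCLiP. None of the 3 Gsta genes on chromosome 9 (chr9:78182774-78355788) was higher and 1, Gsta4, was lower in both, and no Sult2a gene was tested. Gsta3, on chromosome 1, lies apart from them.

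**Figure D4:**
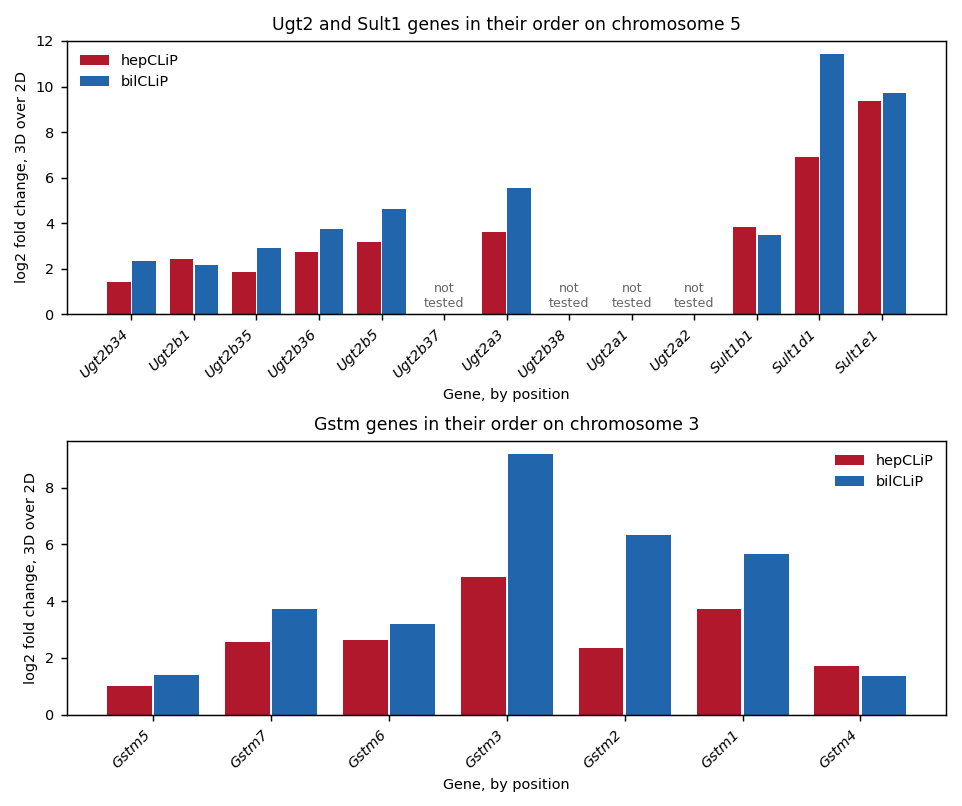
Fitted log2 fold change of 3D over 2D (vertical axis) for hepCLiP (red) and bilCLiP (blue), with genes in their order along chromosome 5 (top) and chromosome 3 (bottom). All bars point up, the tallest measured ones being those of Sult1d1 (6.92 and 11.44) and Gstm3 (4.85 and 9.19), and the bars of Sult1e1 rest on 1 count in hepCLiP 2D and none in bilCLiP 2D.

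Origin made a smaller difference. Between bilCLiP 2D and hepCLiP 2D, 0 of the 44 genes were called by edgeR (0.135% of all genes were, 20 in number, 0.0811% as higher and 0.0541% as lower), 11 had an unadjusted p under 0.05 (2146 of all 14798 genes had one), and DESeq2 called 3, all lower in bilCLiP 2D: Gstm2, Sult1d1 and Ugt1a6b. The median log2 fold change was -0.80, against -0.04 over all genes. Sult1d1 had 0.0431, 0.0777 and 0.592 CPM in bilCLiP 2D, against 4.67, 3.55 and 6.69 CPM in hepCLiP 2D, a log2 difference of -4.40 ± 0.78 (adjusted p = 0.0752 by edgeR, 1.26e-07 by DESeq2). The 2 sets of libraries did not overlap for 9 genes, every one lower in bilCLiP 2D, which is 20.5% of the 44 beside 21% of all genes in either direction. Over all 14798 genes, 1340 of those without overlap were higher and 1764 lower in bilCLiP 2D.

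Between bilCLiP 3D and hepCLiP 3D, 0 of the 44 genes were called by edgeR (0.101% of all genes were, 15 in number, 0.0541% as higher and 0.0473% as lower), 6 had an unadjusted p under 0.05 (2461 of all 14798 genes had one), and DESeq2 called 4, all lower in bilCLiP 3D: Gstp1, Gstt2, Ugt2b1 and Ugt3a2. The median log2 fold change was -0.09, against 0.00 over all genes. Gstp1, at 463, 997 and 723 CPM in bilCLiP 3D against 1298, 2102 and 1346 CPM in hepCLiP 3D, had the smallest edgeR p, with a log2 difference of -1.12 ± 0.32 (adjusted p = 0.174). The libraries did not overlap for 2 genes higher and 5 lower in bilCLiP 3D, 15.9% of the 44 beside 21.8% of all genes. Sult1d1 stood at 655 ± 177 CPM in bilCLiP 3D and 603 ± 390 CPM in hepCLiP 3D (SD, n = 3 each), a log2 difference of 0.12. Genotype is partly confounded with origin, since all RosaConfetti libraries are hepCLiP.

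The difference between the culture effects of bilCLiP and hepCLiP was called for 0 of the 44 genes and for 0% of all genes by edgeR, while 5 of the 44 had an unadjusted p under 0.05 (Sult1d1, Gstm3, Gstm1, Gstm7 and Gstm2, each fitted with a larger culture effect in bilCLiP). Across all genes 532 had one. The Gstm3 difference of 4.34 on the log2 scale rests on hepCLiP 2D replicate 3, since it was 1.08 without it, and with RosaYFP libraries alone it turned to -0.89. For Sult1d1 the culture effect was larger in bilCLiP by 4.52 ± 0.96 on the log2 scale (adjusted p above 0.99 by edgeR), and DESeq2 called it alone among the 44 (4.49, adjusted p = 0.00237). Genes called in a single origin, such as Gsta3, Gstm2, Ugt2b34, Ugt1a5, Gstt2 and Gsto1, were thus not shown to differ between origins.

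Genes that supply and follow these enzymes were examined in lists chosen with earlier results of these data known. Over all tested genes, 34.7% were called in hepCLiP (16.9% higher, 17.9% lower) and 30.3% in bilCLiP (15.8% higher, 14.5% lower). None of the lists was tested as a set. Of 7 genes of UDP-glucuronate supply, 4 were higher in hepCLiP 3D and 3 in bilCLiP 3D, and none lower, with medians of 1.03 and 0.50 on the log2 scale. Slc35d1, which carries UDP-glucuronate into the endoplasmic reticulum, had log2 fold changes of 1.30 ± 0.35 (adjusted p = 0.0146) and 1.21 ± 0.35 (0.0233). Ugdh, which makes UDP-glucuronate, had 203, 302 and 373 CPM in hepCLiP 3D, against 235, 268 and 365 CPM in hepCLiP 2D, and was called in neither origin. Of 8 genes of PAPS supply 1 was higher and 1 lower in each origin, with medians of 0.01 and -0.10. In both origins this is a smaller share than that called over all genes. The sulfate carrier Slc26a1 had 55.1, 72.4 and 45.2 CPM in hepCLiP 3D, against 0.463, 0.773 and 1.55 CPM in hepCLiP 2D, a log2 fold change of 5.95 ± 0.60 (adjusted p = 0.000117), and 5.33 ± 0.58 (0.000163) in bilCLiP. The related carrier Slc26a2 was lower, by -2.85 ± 0.41 (0.000588) and -3.11 ± 0.41 (0.000462). The PAPS synthases Papss1 and Papss2 were called in neither origin.

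Of 11 tested genes of glutathione supply and salvage, 4 were higher and 2 lower in hepCLiP 3D, and 5 higher and 2 lower in bilCLiP 3D, with medians of 0.61 and 0.10. Gclc, the catalytic subunit of the rate-limiting enzyme of glutathione synthesis, had 540, 548 and 444 CPM in hepCLiP 3D, against 2356, 1851 and 1430 CPM in hepCLiP 2D, and was lower by -1.88 ± 0.36 (adjusted p = 0.00277) there and by -2.08 ± 0.37 (0.00195) in bilCLiP 3D. Gsr, glutathione reductase, was lower in both, and the peptidase Anpep and the 5-oxoprolinase Oplah were higher in both. Among 16 tested genes of the NRF2 pathway, which induces many conjugating enzymes, 1 was higher and 4 lower in hepCLiP 3D, and 2 higher and 6 lower in bilCLiP 3D, with medians of 0.01 and -0.55. The share called in hepCLiP was no larger than that over all genes. Nfe2l2, which encodes NRF2, was lower by -1.14 ± 0.21 (adjusted p = 0.00191) and -0.67 ± 0.20 (0.0301). Gclc, Gclm, Slc7a11 and Abcc1 stand in more than 1 of these lists.

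Of 17 nuclear receptors and other liver regulators, 9 were higher and 1 lower in hepCLiP 3D, and 10 higher and 1 lower in bilCLiP 3D, with medians of 0.81 and 1.34. Cebpa, a C/EBP factor of mature hepatocytes, had 237, 188 and 186 CPM in hepCLiP 3D, against 6.198, 6.55 and 7.14 CPM in hepCLiP 2D, a log2 fold change of 4.94 ± 0.32 (adjusted p = 1.12e-05), and 5.78 ± 0.34 (5.81e-06) in bilCLiP. Foxa2 was lower in both. The dioxin receptor gene Ahr was called in neither origin (-0.23 ± 0.18 and -0.45 ± 0.18). Nr1i3, the receptor CAR that induces several of these enzymes, stayed at or below 1.63 CPM in every library.

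Of 9 exporters of conjugates, 1 was higher and 5 lower in hepCLiP 3D, and 1 higher and 3 lower in bilCLiP 3D, with medians of -0.79 and -0.70. Abcc6, a hepatocyte transporter, had 47.2, 53.7 and 34.5 CPM in hepCLiP 3D, against 0.463, 0.0909 and 0.899 CPM in hepCLiP 2D, while Abcc4, which exports bile acids at the basolateral side, was lower by -2.78 ± 0.27 (adjusted p = 9.96e-05) there and by -2.70 ± 0.27 (0.000112) in bilCLiP 3D. Abcc2, the main exporter of glucuronides and glutathione conjugates into bile, was called in neither origin. Of 17 tested enzymes that conjugate in other ways, 14 were higher and none lower in either origin, with medians of 3.09 and 2.96. Baat, which joins bile acids to taurine and glycine, had 46.4, 51.3 and 93.1 CPM in hepCLiP 3D, against 1.02, 0.273 and 2.15 CPM in hepCLiP 2D, and 49.9, 38.1 and 49.8 CPM in bilCLiP 3D, against 0.172, 0.466 and 0.273 CPM in bilCLiP 2D.

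**Figure D5:**
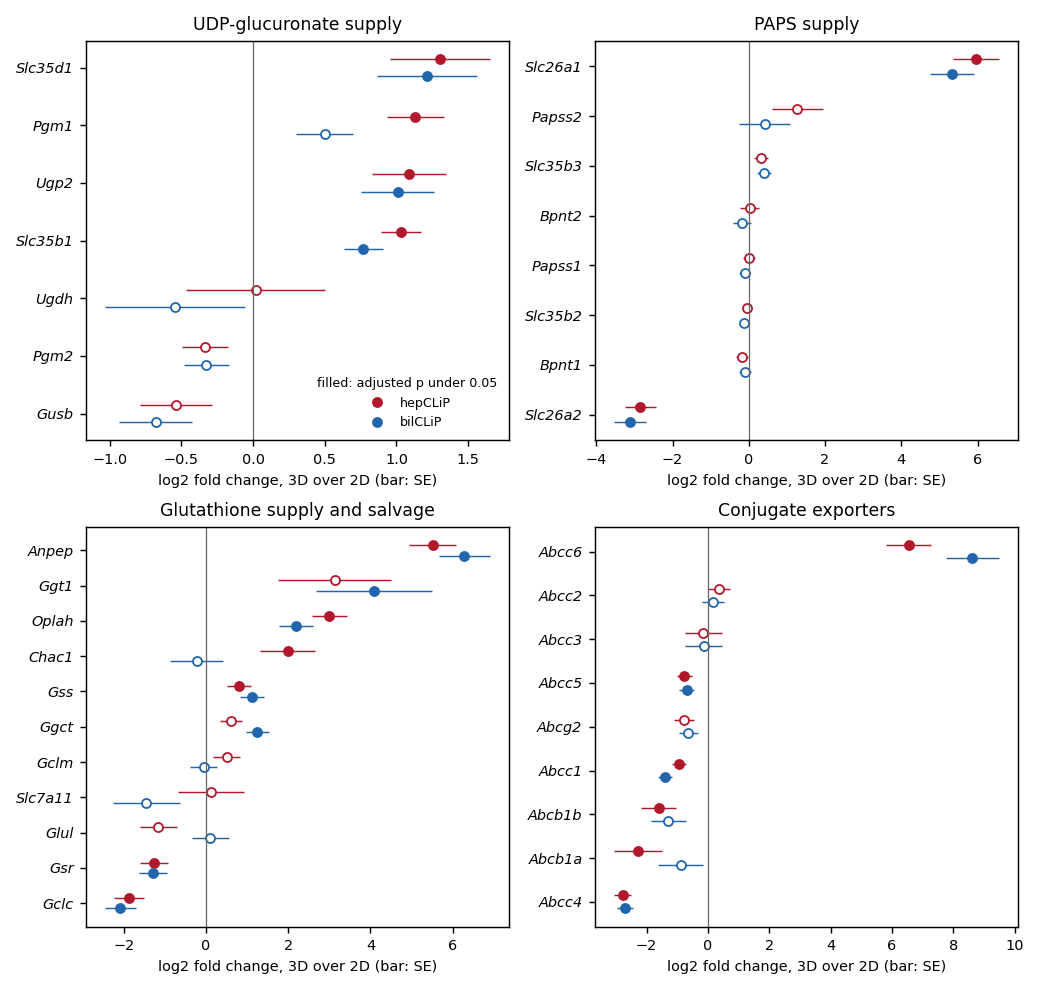
Log2 fold change of 3D over 2D (horizontal axis, bars SE, filled where the adjusted p was under 0.05) for hepCLiP (red) and bilCLiP (blue) in 4 lists of genes that supply the enzymes or export their products. Slc26a1, Anpep and Abcc6 lay far to the right, at 5.95, 5.51 and 6.54 in hepCLiP, while Slc26a2, Gclc and Abcc4 lay to the left, at -2.85, -1.88 and -2.78.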

How the data were processed

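Counts per gene for 12 mouse libraries in 4 groups of 3 were deposited by the authors, made with STAR 2.7.10b and featureCounts 2.0.1 on GRCm39, per the submitters' processing notes. For annotation, strand and counting options the sources used here give nothing, so reads of antisense or near-identical genes cannot be separated. A second deposited table holds a signal, which by comparison of the files is the same counts divided by 1 constant per sample, and it served only as an alternative scaling. The notes also name DESeq2.

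Counts were fitted with edgeR 4.0.16 (R 4.3.3, TMM scaling, filterByExpr, robust quasi-likelihood test, 1 mean per group over all 12 samples). A call is a Benjamini-Hochberg adjusted p under 0.05 over 14798 genes, SE is the log2 fold change over the root of F, and CPM uses TMM-scaled totals. DESeq2 1.42.0, other scalings, filters, sample sets and left-out libraries were alternatives. Intervals and the floor of 3 counts cover counting error only. Library totals, given with the groups, limit precision for genes of few counts. The fit was tested on simulated data, where it missed many of the smaller changes and did not meet a first criterion on the share recovered, and it passed a criterion on larger changes set afterwards. Few or no calls therefore do not show that smaller differences are absent.

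Same-numbered libraries of 3D and 2D within an origin deviated together (correlations of 0.474 to 0.513 in hepCLiP and 0.432 to 0.506 in bilCLiP), so the block within origin is given where it changed a call.

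Members and lists were chosen with earlier results of these data known. Named members are the 2 of highest mean CPM per family, up to 5 called rises and falls per culture comparison with a group mean of at least 5 CPM, and the 2 with the smallest p among those that missed the threshold. Other named genes, the motifs, the printed promoters, the shared run, the cluster bounds, the library ranks and the RosaConfetti alternative were chosen after values were seen. Sequences come from RefSeq and positions from GENCODE, both on GRCm38, matched by symbol for 67 of 68 genes, and shared sequence is the share of 100-base windows of the longest protein-coding transcript found in another gene.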

Additional observations from a re-analysis of the deposited data

How the results depend on the processing

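No called value of a tested gene changed sign under any alternative run. Of 4388 values of single genes under alternatives, 4246 stayed on their side of the threshold, 41 were newly called and 101 lost their call, and 219 values called in neither fit changed sign. In hepCLiP 3D against 2D, 27 genes were higher (21 to 29 with 1 library left out, 7 with RosaYFP libraries only) and 2 lower (1 to 4 with 1 library left out). The lower ones numbered 4 by DESeq2, 6 with library totals only, 4 with only the 2 groups fitted, 4 with the replicate block within origin, 0 with RosaYFP libraries only and 1 with hepCLiP RosaConfetti libraries only, an alternative added after seeing the data. Over all genes 5139 were called there, against 7915 with library totals, 769 with RosaYFP and 3263 with RosaConfetti libraries. In bilCLiP 28 were higher (27 to 29 with 1 library left out) and 3 lower (1 to 4, and 5 by DESeq2), and 4485 of all genes were called, against 6763 with library totals. Counts under alternatives run over all 68 genes and can include Ugt2b38 (higher) and Sult6b1 (lower in bilCLiP), which the filter on all libraries left out. Over the 44 alone, DESeq2 called 4 lower in bilCLiP.

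Between origins in 2D, 0 genes were lower, against 3 by DESeq2 and 1 (Sult1d1, adjusted p = 0.0362) with the replicate block by number. Over all genes 20 were called, against 467 by DESeq2, 5 with only the 2 groups, 62 with the block, 5 with RosaYFP libraries and 6 to 31 with 1 library left out. In 3D, 0 were higher and 0 lower, against 1 higher (Gstm5, adjusted p = 0.0306) with the block and 4 lower by DESeq2. Over all genes 15 were called, against 575 by DESeq2, 3 with only the 2 groups, 44 with the block and 3 to 251 with 1 library left out, the last without hepCLiP 3D replicate 3. For the difference of the culture effects 0 members were higher, against 1 by DESeq2, and 0 of all genes were called, against 12 by DESeq2 and 0 to 3 with 1 library left out. The cause of these shifts was not tested. Across origins same-numbered libraries correlated at 0.0218 to 0.128 in 2D and 0.0867 to 0.150 in 3D. Libraries of different number correlated at -0.157 to 0.123 in 2D and -0.168 to 0.0779 in 3D. Whether same-numbered libraries of the 2 origins have a common source was not tested. Genes with no counts in 2D (Ugt1a5 in both origins, Ugt3a2 and Sult1e1 in bilCLiP) have only a lower bound on their fold at this depth.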
